A study of Mus musculus with 2 samples.

Results

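The Notch pathway genes Notch1, Notch2, Jag1, Dll1, Lfng, Rbpj, Hes1, Hes5, Hey1 and Heyl were followed in the open chromatin of embryonic mouse kidneys. These 10 genes of 21728 protein-coding genes were chosen by name, and their regions were all peaks that touched the gene body or the 2 kb upstream of it (GENCODE M21, genome build mm10). This gave 73 of the 159560 peaks of the Enl-WT library and 67 of the 130027 peaks of the Enl-T1 library. Each library had its own peak calls, and peaks that overlapped between libraries were joined into 53 shared regions of the Notch genes, of 110706 in all. Of the 10 genes, 9 had at least 1 shared region, and Hes5 had none.

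Kidneys from B6 embryos at E15.5 were profiled by snATAC-seq, an assay in which a transposase cuts the accessible DNA of isolated nuclei and the cuts are counted per nucleus. Enl-T1 kidneys were Enl flox-T1/+ and Wt1 GFPCre/+, so that a Wilms tumour mutation of Enl (Mllt1), a reader of histone acylation, was switched on by a Cre made from the Wt1 locus, which is active in the nephron and stromal lineages. Enl-WT kidneys were Enl +/+ and Wt1 GFPCre/+. Both groups therefore carried the GFPCre knock-in, which takes up 1 Wt1 allele. Each group was 1 library, the sources used here do not give the number of embryos behind it, and no test between groups was possible. Differences below are differences between 2 libraries, and their 95% intervals cover counting error only.

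Notch signalling passes between touching cells. A ligand of the Jagged or Delta-like family on one cell binds a Notch receptor on its neighbour, the receptor is cut, and its intracellular part enters the nucleus, where it joins the DNA-binding protein RBPJ and switches on genes such as those of the Hes and Hey families. Fringe enzymes, among them Lfng, add sugars to the receptor and so tune which ligand it answers. In the kidney, Notch signalling acts in the renal vesicle and the S-shaped body, where it is needed for proximal tubule and podocyte fates, and in blood vessels and mural cells.

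The promoters of Hes5 and Lfng are shown because the Hes5 peak was called in 1 library only and because Lfng stood apart in the comparison of the libraries. Each sequence is the 250 bases before the transcription start site (TSS), from RefSeq promoter sequences of GRCm38.p6 (the assembly of mm10), 5′ to 3′ on the plus strand, which is the coding strand of both genes. Capitals mark TGGGAA, the core of the RBPJ motif, or its reverse complement TTCCCA. Of the 10 genes, 7 were in the promoter table, and Hes1, Hey1 and Heyl were not.
Hes5, chr4:154960673-154960922: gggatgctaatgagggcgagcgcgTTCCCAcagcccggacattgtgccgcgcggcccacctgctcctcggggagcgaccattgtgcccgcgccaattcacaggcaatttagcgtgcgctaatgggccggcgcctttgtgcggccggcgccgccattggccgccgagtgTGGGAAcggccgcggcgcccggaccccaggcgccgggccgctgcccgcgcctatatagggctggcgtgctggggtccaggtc
Lfng, chr5:140607091-140607340: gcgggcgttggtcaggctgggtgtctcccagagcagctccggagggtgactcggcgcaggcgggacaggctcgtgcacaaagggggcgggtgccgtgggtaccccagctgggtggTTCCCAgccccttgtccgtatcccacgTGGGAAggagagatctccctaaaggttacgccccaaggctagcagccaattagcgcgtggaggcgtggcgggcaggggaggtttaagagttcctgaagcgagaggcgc
Both windows held 2 cores, 1 in each direction. In Hes5 they began 226 and 82 bases before the start, and in Lfng 135 and 108 bases before it. Of 32851 promoter windows, 21.6% held at least 1 core and 2.77% held 2 or more. A match of letters is a description and does not show that the factor was bound.

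Nuclei were barcodes with between 2000 and 100000 counts. Enl-WT had 9472 of them, with a median of 14790 counts, and Enl-T1 had 12635, with a median of 8753. Accessibility is given as CPM, the counts scaled to 1000000 counts in shared regions, summed over the nuclei of a class and over the shared regions of a gene. Nuclei were clustered without the regions of the Notch genes and of 40 other pathway genes, and clusters were named from markers of which none was in either list. Enl-WT and Enl-T1 had 1851 and 3925 nephron progenitor-like nuclei. Stroma-like nuclei numbered 2846 and 4701, ureteric epithelium-like nuclei 934 and 1894, and endothelial-like nuclei 772 and 625. Early nephron epithelium-like nuclei numbered 593 and 126, proximal tubule-like nuclei 836 and 52, podocyte-like nuclei 325 and 0, smooth muscle or mural-like nuclei 115 and 78, and immune-like nuclei 99 and 161. A further cluster with raised distal tubule markers, cluster 13, did not meet the rule for a name and held 704 and 77 nuclei. With it, 1076 and 1005 nuclei had no name. Among them, cluster 16 (54 and 375 nuclei) and cluster 19 (98 and 144) scored highest for progenitor markers. The progenitor-like class therefore left out nuclei that were more numerous in Enl-T1. The libraries shared 149 barcode sequences, which is 1.57% of those in Enl-WT and 1.18% of those in Enl-T1. The counts do not show whether a nucleus carried the mutation, so the genotype labels were taken as given.

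The progenitor-like nuclei of the libraries came from different clusters, which bears on every comparison of them. In Enl-WT, 1849 of the nuclei were in cluster 1, which held 108 nuclei of Enl-T1. In Enl-T1, 2605 were in cluster 0 and 1212 in cluster 7, each with 1 nucleus of Enl-WT. Of the 10 progenitor markers, 6 were raised in clusters 1 and 7 and 4 in cluster 0, and none was among the 10 leading genes of these clusters. Summed over the list, these markers (Six2, Cited1 and Eya1 among them) stood at 398 CPM in Enl-WT progenitor-like nuclei. In Enl-T1 they stood at 348 CPM, a log2 ratio of -0.19. The 8 early nephron markers, such as Wnt4 and Lhx1, stood at 383 and 464 CPM, a log2 ratio of 0.28. Marker lists of unrelated classes moved about as far in these nuclei: smooth muscle or mural -0.21, immune -0.18 and erythroid 0.22. All lists lay between -0.21 and 0.28.

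In Enl-WT, the genes of the pathway differed in where they were most accessible, and both ligands were higher in early and proximal nuclei than in progenitor-like nuclei. Jag1, a ligand of the renal vesicle and S-shaped body, stood at 91.7 CPM in progenitor-like nuclei and at 177 CPM in early nephron epithelium-like nuclei. It was 167 CPM in proximal tubule-like nuclei, 156 CPM in cluster 13 and 138 CPM in podocyte-like nuclei. Ureteric epithelium-like nuclei, at 130 CPM, were above progenitor-like nuclei too. The 95% intervals of the early and proximal values, 165 to 190 CPM and 157 to 178 CPM, overlapped, and the progenitor interval, 86.5 to 97.1 CPM, lay below both. Jag1 was lower again in stroma-like nuclei, at 82.1 CPM, and lowest in immune-like nuclei, at 50.1 CPM.

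Dll1, a Delta-like ligand, was also lower in progenitor-like than in early and proximal nuclei, but was highest in the proximal ones. Its single shared region, at its TSS, stood at 20.9 CPM in progenitor-like, 32.5 CPM in early and 47.9 CPM in proximal tubule-like nuclei, and at 21.0 CPM in podocyte-like nuclei. In stroma-like nuclei it was 10.8 CPM. Cluster 13, at 33.7 CPM, and endothelial-like nuclei, at 32.5 CPM, were level with early nuclei. Because this region also overlaps the non-coding gene A930024N18Rik, its counts cannot be given to Dll1 alone.

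Of the receptors, Notch1 was most accessible in endothelial-like (194 CPM) and proximal tubule-like nuclei (193 CPM), which did not differ beyond their intervals. It was 146 CPM in early nephron epithelium-like, 120 CPM in progenitor-like and 116 CPM in stroma-like nuclei. Notch2, the receptor that proximal nephron formation depends on, had a different profile. It was highest in ureteric epithelium-like (192 CPM) and stroma-like nuclei (184 CPM), at 124 CPM in progenitor-like, 138 CPM in early and 153 CPM in proximal tubule-like nuclei, and lowest in endothelial-like nuclei, at 76.9 CPM. Endothelial-like nuclei thus had the highest Notch1 level and the lowest Notch2 level of the classes named here.

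Lfng was highest in endothelial-like nuclei, at 86.7 CPM, and in podocyte-like nuclei, at 78.3 CPM, whose intervals overlapped. It was 68.7 CPM in proximal tubule-like, 58.1 CPM in early and 53.3 CPM in progenitor-like nuclei, and lowest in stroma-like nuclei, at 39.0 CPM. Rbpj, the DNA-binding partner of all Notch receptors, varied little over the named nephron classes, between 127 CPM in podocyte-like and 141 CPM in progenitor-like nuclei. Its highest value, 188 CPM in the 99 immune-like nuclei, had an interval of 149 to 233 CPM.

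The target genes fell into separate patterns. Hes1, a repressor found in many tissues, was between 92.2 and 139 CPM in all classes. Heyl was far less even. It stood at 153 CPM in smooth muscle or mural-like nuclei and 139 CPM in early nephron epithelium-like nuclei, at 118 CPM in progenitor-like, 81.4 CPM in proximal tubule-like and 57.6 CPM in podocyte-like nuclei, and at 29.0 CPM in endothelial-like nuclei. Hey1 was 88.0 CPM in mural-like, 87.3 CPM in early and 79.5 CPM in proximal tubule-like nuclei, which overlapped in their intervals, against 62.6 CPM in progenitor-like and 52.0 CPM in stroma-like nuclei.

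Hes5, a target often used as a readout of Notch activity, had a single peak, at chr4:154960443-154961334 over its TSS, which overlaps the gene model Gm20421 as well. The peak was called in Enl-WT only and held 1176 counts there. It was most accessible in cluster 13, at 23.7 CPM (19.5 to 28.5), and in proximal tubule-like nuclei, at 20.6 CPM (17.1 to 24.7), followed by early nephron epithelium-like nuclei, at 14.7 CPM (11.3 to 18.8). Progenitor-like nuclei stood at 7.07 CPM (5.69 to 8.67) and stroma-like nuclei at 4.48 CPM (3.54 to 5.58). With no Enl-T1 peak there are no Enl-T1 counts for Hes5, which is not a level of 0, and no comparison of the libraries was made. The classes in which Hes5 was highest in Enl-WT held 77, 52 and 126 Enl-T1 nuclei, and whether their low number bears on the missing peak was not tested.

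**Figure D1:**
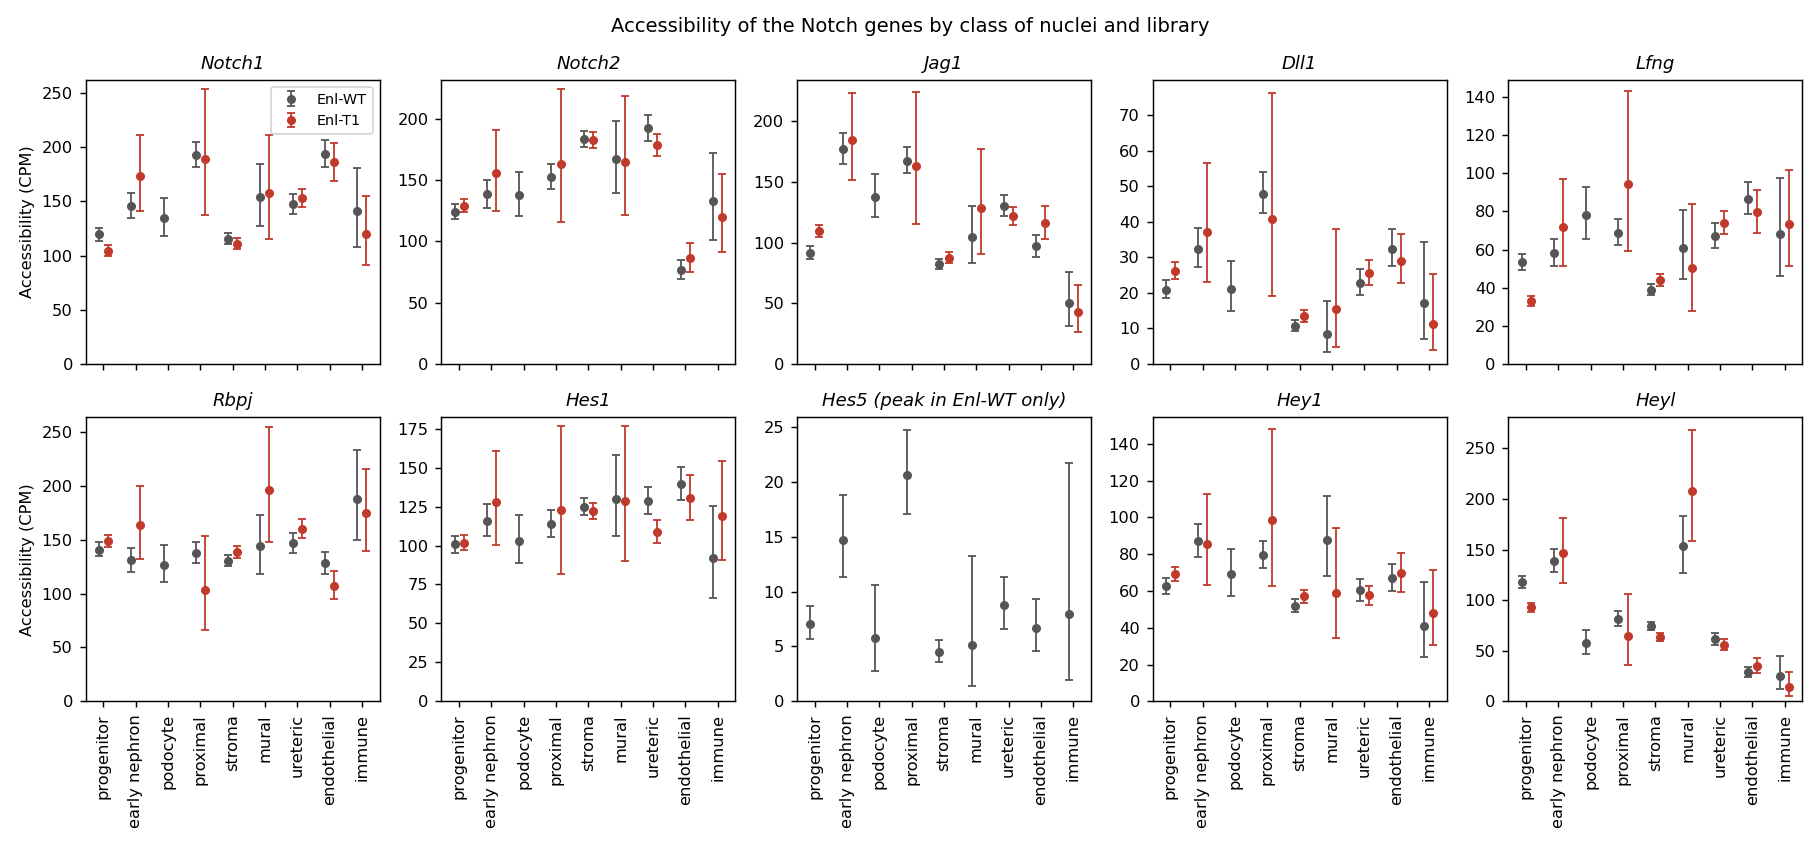
Accessibility of each Notch gene in CPM (vertical axis, from 0) by class of nuclei (horizontal axis) in Enl-WT (grey) and Enl-T1 (red). Points are sums over all nuclei of a class in 1 library and bars are exact Poisson 95% intervals on fragments. Hes5 is shown for Enl-WT only. Jag1 and Hes5 are lower in progenitor-like than in early and proximal nuclei, and Lfng is lower in Enl-T1 than in Enl-WT progenitor-like nuclei.

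Setting the libraries against each other over all nuclei, none of the 9 genes with shared regions passed a 1.5-fold difference, where 1.87% of 16823 protein-coding genes with at least 200 counts did, 0.987% higher and 0.886% lower. The median log2 ratio of Enl-T1 to Enl-WT was -0.10 over the 9 genes and -0.03 over all genes tested. The classes of nuclei differed in number between the libraries, so fewer nuclei of a class and less accessibility per nucleus cannot be told apart in these totals. The comparisons within classes follow.

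In nephron progenitor-like nuclei, Lfng was the 1 of 9 genes past 1.5-fold, and it was lower in Enl-T1. Of all 16260 genes tested, 3.71% were past 1.5-fold, 1.58% higher and 2.13% lower. Lfng had 1379 counts (53.3 CPM) in Enl-WT and 1206 counts (32.8 CPM) in Enl-T1, which is a log2 ratio of -0.70 (-0.86 to -0.54), and 1.38% of genes had a lower ratio. Both of its shared regions showed the difference. The region at its TSS, over the promoter printed above (chr5:140606841-140607760), went from 38.6 to 23.9 CPM, a log2 ratio of -0.69 (-0.88 to -0.50). Its peaks were 920 bp (Enl-WT) and 841 bp (Enl-T1) wide, so more bases were counted in Enl-WT. The region over exon 2 (chr5:140610996-140611867) went from 14.6 to 8.89 CPM, a log2 ratio of -0.72 (-1.03 to -0.41). There the Enl-WT peak, at 807 bp, was the narrower one, against 854 bp in Enl-T1.

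A Lfng difference of this size was not seen in the other 3 classes compared. In stroma-like nuclei Lfng was 39.0 CPM in Enl-WT and 44.0 CPM in Enl-T1 (log2 ratio 0.17, 0.02 to 0.32), and in ureteric epithelium-like nuclei 67.1 and 73.9 CPM (0.14, -0.04 to 0.32). In endothelial-like nuclei it was 86.7 and 79.4 CPM (-0.13, -0.38 to 0.12). These 3 intervals all lay above that of the progenitor-like nuclei. In the 126 early nephron epithelium-like nuclei of Enl-T1, Lfng was 71.7 CPM, against 58.1 CPM in Enl-WT. The Enl-T1 value came from only 47 counts in the TSS region and 36 in the exon 2 region. No ratio was taken in this class.

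Within the progenitor-like nuclei, the size of the Lfng difference depended on the cluster. Against 53.3 CPM in cluster 1 of Enl-WT, Lfng stood at 30.1 CPM in cluster 0 of Enl-T1, which is a log2 ratio of -0.82 (-1.01 to -0.64). In cluster 7 of Enl-T1 it stood at 37.2 CPM, which gives a log2 ratio of -0.52 (-0.74 to -0.30), which is below 1.5-fold. The 108 nuclei of Enl-T1 that shared cluster 1 with Enl-WT had 45.4 CPM from 44 counts, a log2 ratio of -0.23 with an interval of -0.91 to 0.38 that includes both 0 and the value of cluster 0. Taken as the share of nuclei with a fragment in the gene after thinning every nucleus to 3000 counts, Lfng was found in 139 of 1837 Enl-WT nuclei (7.57%, exact interval 6.40 to 8.87%) and 216 of 3876 Enl-T1 nuclei (5.57%, 4.87 to 6.34%), a log2 ratio of -0.44 that did not pass 1.5-fold. Without thinning the shares were 30.6% and 14.4%. The lower progenitor marker level in Enl-T1 given above, which some marker lists of unrelated classes showed too, ran beside the Lfng difference. Its part in that difference was not tested.

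**Figure D2:**
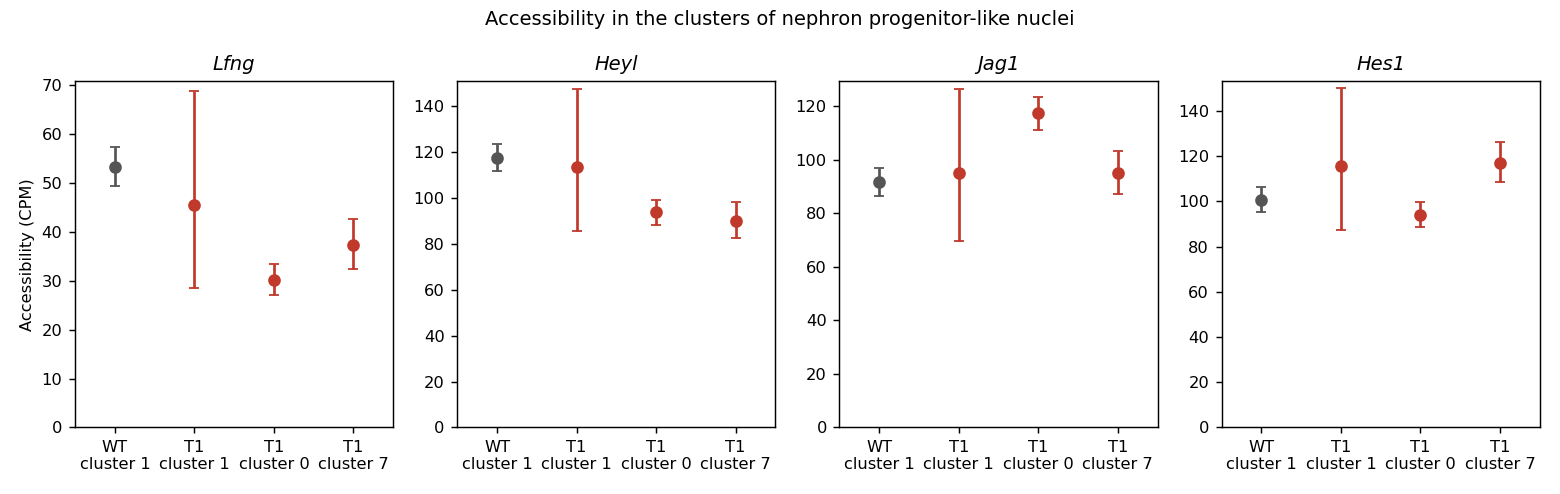
Accessibility of Lfng, Heyl, Jag1 and Hes1 in CPM (vertical axis, from 0) in the clusters of nephron progenitor-like nuclei, with Enl-WT in grey and Enl-T1 in red and exact Poisson 95% intervals on fragments as bars. Lfng and Heyl are lower in clusters 0 and 7 of Enl-T1 than in cluster 1 of Enl-WT, and Jag1 is higher in cluster 0.

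The other Notch genes of the progenitor-like nuclei stayed below 1.5-fold. The ligands were both somewhat higher in Enl-T1. Jag1 had 91.7 CPM in Enl-WT and 110 CPM in Enl-T1, which is a log2 ratio of 0.26 (0.15 to 0.36), and Dll1 had 20.9 and 26.2 CPM, a log2 ratio of 0.33 (0.11 to 0.55). The Jag1 value came from cluster 0, at 117 CPM, while cluster 7 had a log2 ratio of 0.05 (-0.10 to 0.20). For Dll1, clusters 0 and 7 stood at 26.5 and 24.8 CPM. Both ratios lay inside the span of all genes from the 5th to the 95th percentile, -0.41 to 0.36, with 90.6% of genes below Jag1 and 93.8% below Dll1.

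The receptors and the nuclear effector differed little. Notch1 was 120 CPM in Enl-WT and 104 CPM in Enl-T1 (log2 ratio -0.19, -0.29 to -0.10), Notch2 was 124 and 129 CPM (0.06, -0.04 to 0.15), and Rbpj was 141 and 149 CPM (0.08, -0.01 to 0.16). Among the targets, Hes1 was 101 and 102 CPM (0.02, -0.09 to 0.12) and Hey1 was 62.6 and 69.2 CPM (0.15, 0.02 to 0.27). Heyl was lower in Enl-T1, at 118 and 93.1 CPM (-0.34, -0.44 to -0.24), in clusters 0 and 7 alike (93.7 and 90.1 CPM). In cluster 1, the Enl-T1 nuclei had 114 CPM from 110 counts, a log2 ratio of -0.05 (-0.47 to 0.34). That interval includes both 0 and the cluster 0 ratio of -0.33. The Heyl difference lay away from its promoter: the TSS region had a log2 ratio of 0.12 (-0.05 to 0.29), and the regions over exon 2 and exon 5 had -0.63 (-0.78 to -0.47) and -1.05 (-1.41 to -0.70). The exon 2 peaks of Enl-WT and Enl-T1 were 1185 and 901 bp wide, while the exon 5 peaks were 910 and 912 bp wide.

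In stroma-like nuclei none of the 9 genes passed 1.5-fold, against 1.76% of 16184 genes tested, 0.939% higher and 0.822% lower. The ratios of Notch1, Notch2 and Hes1 were -0.06, -0.01 and -0.03, with intervals that included 0. Heyl was again lower in Enl-T1, at 74.2 and 63.6 CPM (-0.22, -0.34 to -0.10), while its TSS region had a log2 ratio of 0.12. Dll1, at 10.8 and 13.4 CPM, had the highest ratio, 0.31 (0.03 to 0.59). With peaks of 1 library added it was -0.05. The added Dll1 peak, with 132 counts here, was called in Enl-WT only, so its counts could only lower the ratio. Of the stroma-like nuclei, 1042 and 865 of Enl-T1 were in clusters 10 and 12, which held 0 and 5 nuclei of Enl-WT.

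In ureteric epithelium-like nuclei, which derive from a lineage other than those of the Cre, none passed 1.5-fold, against 1.35% of all genes tested, 0.858% higher and 0.497% lower. Hes1, at 129 and 109 CPM, had the lowest ratio, -0.24 (-0.38 to -0.11). In endothelial-like nuclei none passed either, against 1.92% of all genes tested, 1.05% higher and 0.868% lower. Jag1 was 96.9 and 116 CPM (0.26, 0.04 to 0.47) and Rbpj 128 and 107 CPM (-0.26, -0.47 to -0.05). Ratios of this size were thus found in classes outside the nephron too.

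**Figure D3:**
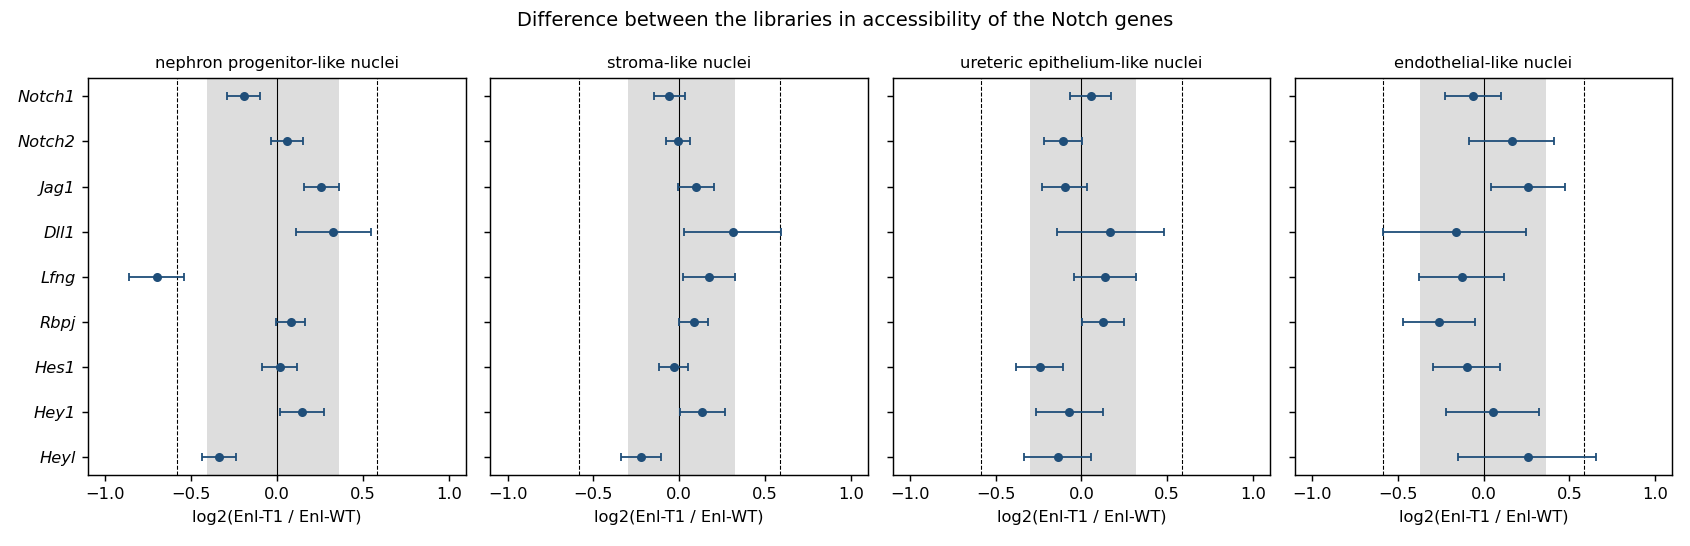
The log2 ratio of Enl-T1 to Enl-WT (horizontal axis) for the 9 Notch genes with shared regions in 4 classes of nuclei. Points are ratios of CPM, bars are exact 95% intervals for counting error, grey bands span the 5th to 95th percentile of all genes tested, and dashed lines mark 1.5-fold. Lfng in nephron progenitor-like nuclei is the only point past a dashed line.

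Of the 40 other pathway genes, 39 were tested in progenitor-like nuclei, of which 1 was past 1.5-fold higher and 1 lower in Enl-T1. Over all genes tested, 1.58% were higher and 2.13% lower. Mfng, a second Fringe enzyme, was the lower one, at 20.7 and 12.5 CPM, a log2 ratio of -0.73 (-0.99 to -0.47). Rfng, the third Fringe, was 20.5 and 21.0 CPM, a log2 ratio of 0.03 (-0.20 to 0.26). The higher one was Dlk1, a non-canonical ligand, with 195 counts (7.53 CPM) in Enl-WT and 432 counts (11.7 CPM) in Enl-T1, with a log2 ratio of 0.64 (0.29 to 1.00). The receptors Notch3 and Notch4 had ratios of 0.00 (-0.13 to 0.14) and -0.01 (-0.16 to 0.13). Parts of the protease that cuts the receptor, Psenen and Ncstn, stood at 0.29 (0.13 to 0.45) and 0.30 (0.10 to 0.50). The median over the 39 genes was 0.00, and over all genes 0.01.

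Mfng was nearer to even in the other classes. It was 4.14 and 4.79 CPM in stroma-like nuclei and 14.4 and 14.2 CPM in ureteric epithelium-like nuclei. In endothelial-like nuclei, where it was highest, it was 37.9 and 30.4 CPM, with an interval of the log2 ratio from -0.72 to 0.08. None of 39 other pathway genes passed 1.5-fold in stroma-like nuclei and none of 38 in ureteric epithelium-like nuclei. Over all genes tested, 1.76% and 1.35% did. In endothelial-like nuclei 1 of 38 did, Dtx3, which was lower at 41.9 and 27.4 CPM (-0.62, -1.04 to -0.21), against 1.92% of all genes tested.

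Some single regions differed more than whole genes did, in about the share seen over the genome. In progenitor-like nuclei 44 of the 53 shared regions had at least 200 counts, of which 2 were more than 2-fold higher and 2 more than 2-fold lower in Enl-T1. Of 71649 such regions over the genome, 4.68% were higher and 4.28% lower. The median log2 ratio of the 44 regions was 0.02. The 4 regions were 2 of Rbpj, 1 of Notch1 and 1 of Heyl.

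The higher regions both belonged to Rbpj but lay far from its main promoter. Region chr5:53522782-53523702 had 50 counts (1.93 CPM) in Enl-WT and 207 counts (5.63 CPM) in Enl-T1, which is a log2 ratio of 1.54 (0.90 to 2.24). It lay 57.1 kb inside the gene as annotated, before the first exon of the main coding transcript. The region was also higher in Enl-T1 stroma-like nuclei, at 193 and 343 counts (log2 ratio 0.83, 0.46 to 1.20). In Enl-WT it stood at 2.61 CPM in proximal tubule-like and 5.47 CPM in stroma-like nuclei. The second, chr5:53463220-53464238, lay 2.4 kb upstream of the annotated gene and had 97 and 288 counts (log2 ratio 1.06, 0.58 to 1.56). Its peaks were 908 bp (Enl-WT) and 793 bp (Enl-T1) wide. The region over the TSS of the main Rbpj transcript (chr5:53590053-53591330) had 1347 and 1730 counts and a log2 ratio of -0.15 (-0.29 to 0.00), from 1278 bp and 822 bp of peaks.

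The lower regions were in Notch1 and Heyl. Region chr2:26488510-26489383, in intron 2 of Notch1, had 508 counts (19.6 CPM) in Enl-WT and 338 counts (9.19 CPM) in Enl-T1, which is a log2 ratio of -1.09 (-1.38 to -0.81). In stroma-like nuclei the same region was higher in Enl-T1, with 138 and 235 counts (log2 ratio 0.77, 0.33 to 1.22), so the classes differed in direction by more than the counting intervals. The TSS region of the main Notch1 transcript (chr2:26503445-26504328) had a log2 ratio of 0.09 (-0.13 to 0.30) in progenitor-like nuclei. The Heyl region, over exon 5 (chr4:123246891-123247803), had 339 and 232 counts in progenitor-like and 833 and 756 in stroma-like nuclei, where its log2 ratio was -0.14 (-0.35 to 0.06).

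In stroma-like nuclei 41 regions had at least 200 counts, of which none was more than 2-fold higher and 1 was lower, against 1.66% and 1.15% of 75463 regions. This was chr2:26458073-26459309, over exon 34 of Notch1, with 563 and 266 counts (log2 ratio -1.08, -1.39 to -0.78). It also overlaps 0610009E02Rik and Gm13568, and the Enl-WT peak there was 1237 bp wide and the Enl-T1 peak 919 bp, so more bases were counted in Enl-WT. Of the regions with at least 200 counts, 0 of 35 passed 2-fold in the ureteric epithelium, where 0.6% of all regions were higher and 0.321% lower. In endothelial-like nuclei 0 of 18 did, where 0.0908% were higher and 0.833% lower.

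The centres of the 3 regions away from exons are shown because they passed 2-fold in progenitor-like nuclei with at least 200 counts. A region in intron 4 of Notch1 (chr2:26481779-26482783) had a log2 ratio of -1.13 (-1.78 to -0.50) there. With 111 and 72 counts it missed that minimum and is not shown. The centres are given as 300 bases of the plus strand of GRCm38 with the RBPJ core in capitals.
Rbpj, higher in Enl-T1, chr5:53523093-53523392: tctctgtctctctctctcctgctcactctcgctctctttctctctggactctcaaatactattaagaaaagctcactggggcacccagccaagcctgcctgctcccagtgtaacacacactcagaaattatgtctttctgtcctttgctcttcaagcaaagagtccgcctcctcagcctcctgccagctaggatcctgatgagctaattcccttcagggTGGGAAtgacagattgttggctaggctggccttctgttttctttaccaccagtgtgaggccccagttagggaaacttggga
Rbpj, higher in Enl-T1, chr5:53463580-53463879: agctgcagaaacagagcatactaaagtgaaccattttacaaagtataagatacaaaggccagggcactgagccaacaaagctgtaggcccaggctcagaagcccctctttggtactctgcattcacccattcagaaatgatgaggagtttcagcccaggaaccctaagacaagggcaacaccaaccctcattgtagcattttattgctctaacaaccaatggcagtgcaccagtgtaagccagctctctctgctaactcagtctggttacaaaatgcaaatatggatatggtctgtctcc
Notch1, lower in Enl-T1, chr2:26488797-26489096: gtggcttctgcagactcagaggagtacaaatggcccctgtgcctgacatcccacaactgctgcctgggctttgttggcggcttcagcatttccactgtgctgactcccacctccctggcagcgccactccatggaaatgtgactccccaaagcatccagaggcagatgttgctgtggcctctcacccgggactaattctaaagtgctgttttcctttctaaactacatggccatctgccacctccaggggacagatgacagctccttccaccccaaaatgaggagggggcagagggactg
The first held 1 core and the others none. Over all member regions, 20 of 53 centres (37.7%) held a core, against 27.3% of 110665 centres of shared regions on the assembled chromosomes.

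**Figure D4:**
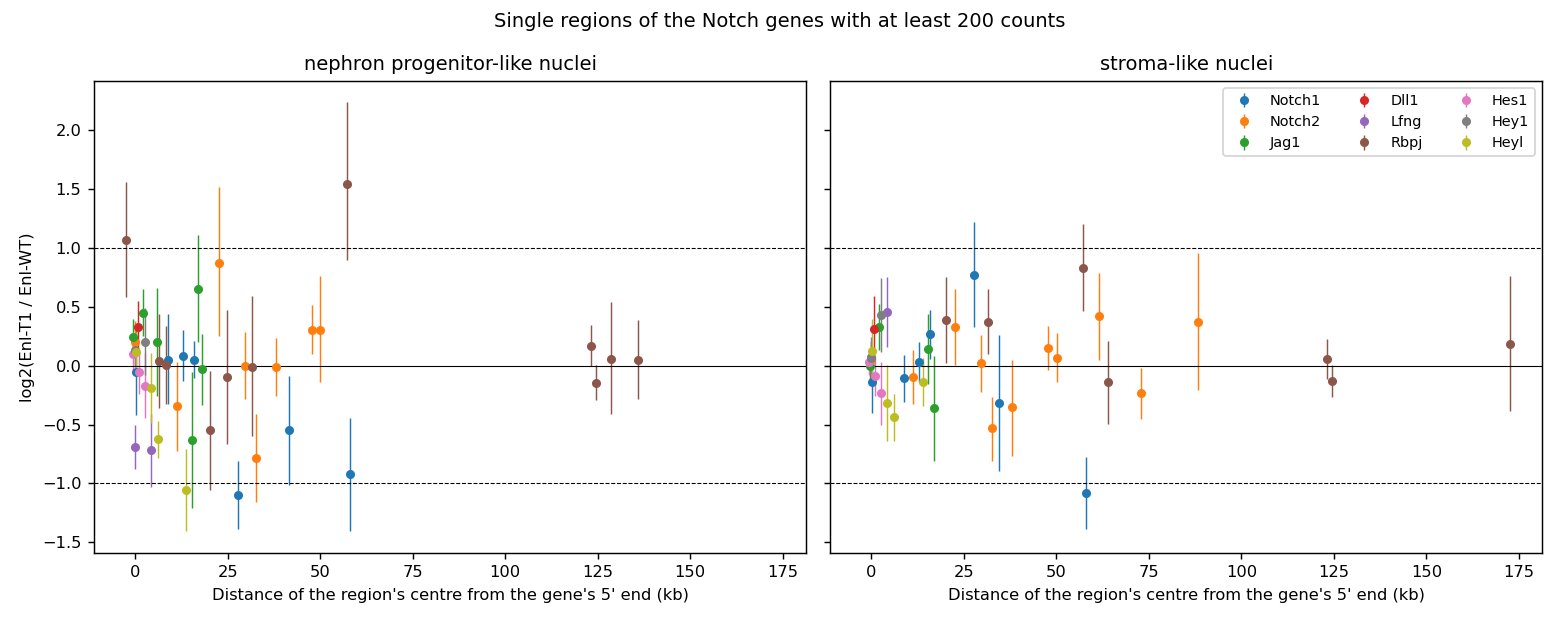
The log2 ratio of Enl-T1 to Enl-WT (vertical axis) of each shared region of the Notch genes with at least 200 counts, against the distance of its centre from the 5′ end of the annotated gene in kb (horizontal axis). The left panel shows nephron progenitor-like nuclei and the right panel stroma-like nuclei. Colours mark genes, bars are exact 95% intervals and dashed lines mark 2-fold. In progenitor-like nuclei the regions more than 2-fold apart are 2 of Rbpj (higher), 1 of Notch1 and 1 of Heyl (lower), and the TSS region of Lfng lies at -0.69.

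At the TSS the other genes differed little in progenitor-like nuclei. The TSS regions had log2 ratios of 0.20 (0.02 to 0.38) for Notch2, 0.24 (0.09 to 0.40) for Jag1 and 0.33 (0.11 to 0.55) for Dll1. For Hey1 the value was 0.13 (-0.01 to 0.27), and for Hes1, with a region just upstream of the gene and another over its first exons, 0.10 (-0.04 to 0.24) and -0.05 (-0.24 to 0.13).

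Peaks called in 1 library only made up the rest of the regions, 20 in Enl-WT with 9.87% of its counts in the Notch genes and 12 in Enl-T1 with 6.26%. Shared regions thus held 90.1% and 93.7% of the counts in the Notch genes, against 88.8% and 94.9% of the counts over all peaks. The Enl-WT peaks were in Rbpj (7), Notch2 (6), Notch1 (4), Jag1, Dll1 and Hes5 (1 each), and the Enl-T1 peaks in Rbpj (6), Notch2 (4), Notch1 and Jag1 (1 each). Hes1, Hey1, Heyl and Lfng had none. The Enl-T1 peak with the most counts in progenitor-like nuclei was chr5:53501318-53502248 in Rbpj, with 396 counts there and 48 in stroma-like nuclei. It was singled out after its values were seen.

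The genes whose levels ran most like those of the members were found over 20 profiles of a class in 1 library with at least 50 nuclei, by Pearson's r of log2(CPM + 1). They are given as a description, since profiles of a library share its depth and its peaks. For Jag1 they were Gm15737 (r = 0.93) and Lamb1 (0.92), a laminin chain of basement membranes, and for Heyl they were Cdcp2 (0.91) and Cspg4 (0.87), a pericyte proteoglycan. For Dll1 they were Slc24a1 (0.87) and Spata13 (0.86). For Hey1 they were Cacng2 (0.84) and S1pr5 (0.84), for Hes1 Peg10 (0.82) and Socs2 (0.80), and for Notch1 Depp1 (0.82) and Helz (0.80). The values for Rbpj (Itgb4, 0.81, and Fnbp4, 0.80), Notch2 (Ccdc170, 0.78, and Mamstr, 0.77) and Lfng (Ifi47, 0.78, and Arhgef3, 0.72) were lower.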

How the data were processed

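Per the submitters' processing notes, reads were aligned to mm10 with Cell Ranger ATAC 2.1.0. The authors called peaks per library and deposited raw counts per peak and barcode, which are whole numbers and not normalised. Even numbers made up 91.1% (Enl-WT) and 88.0% (Enl-T1) of these deposited counts, so 2 counts stood for about 1 fragment, and intervals were taken on counts divided by 2. The libraries held 138176616 and 110265593 counts. Shared regions were made with bedtools 2.31.1 from peaks overlapping by at least 1 bp, with 88.8% (Enl-WT) and 94.9% (Enl-T1) of the counts inside them.

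All nuclei were clustered in 1 run by latent semantic indexing (scikit-learn 1.9.0, components 2 to 30) and the Leiden algorithm (leidenalg 0.10.2, resolution 1) on 15 neighbours, with no integration of the libraries. The 269 regions of the Notch and other pathway genes were left out of clustering. A cluster was named by the mean log2 ratio of marker CPM to the median cluster (at least 0.4, at least 3 markers raised, a lead of 0.1). Doublets were not removed in the main analysis, and 7.71% and 10.7% of the nuclei were removed as doublet-like in an alternative. The study's filters on fragments were not applied.

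A gene was called past 1.5-fold, or a region past 2-fold, with at least 200 counts over both libraries. Ratios have exact conditional intervals, CPM exact Poisson intervals and shares exact binomial (Clopper-Pearson) intervals, all 95%. The ratio, interval and call were tested on simulated data, drawn as Poisson fragments per gene at Enl-WT levels. Peak calling, clustering and naming were not simulated. The members, marker lists, other pathway genes and naming rule were chosen with earlier results of these data known. All 10 members were named, with other pathway genes past 1.5-fold in progenitor-like or stroma-like nuclei, member regions past 2-fold there, TSS regions, and 2 genes of like pattern per member. Dtx3, Rfng, Notch3, Notch4, Psenen and Ncstn were named in addition, after their values were seen.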

Additional observations from a re-analysis of the deposited data

Results flagged for a closer look

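For 1 gene and 3 regions the log2 ratio of Enl-T1 to Enl-WT had opposite signs in the nephron progenitor-like and the stroma-like nuclei, with intervals that left out 0 in both classes. With 1 library per group the difference between the classes was not tested. Lfng stood at -0.70 in progenitor-like and 0.17 in stroma-like nuclei, and its exon 2 region at -0.72 and 0.46. The TSS region of Lfng stood at -0.69 and 0.07, and its stroma-like interval (-0.11 to 0.25) included 0. The region in intron 2 of Notch1 (chr2:26488510-26489383) stood at -1.09 and 0.77. A region within the annotated Rbpj gene (chr5:53485752-53486666) stood at -0.55 and 0.39, on 138 and 134 counts in progenitor-like nuclei and 221 and 289 counts in stroma-like nuclei.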

How the results depend on the processing

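In progenitor-like nuclei the count of Notch genes past 1.5-fold was 1, Lfng. It was 2, with Heyl at -0.63 beside Lfng at -0.59, when each nucleus was named by its own markers. It was 0 by shares of thinned nuclei, 0 at 2-fold and 0 for cluster 7 of Enl-T1 alone. In cluster 1 of both libraries it was 1, but the gene was Dll1, higher at 0.67 (-0.16 to 1.39) on 538 and 32 counts. Lfng was at -0.23 there. Of all genes tested in that comparison, 5.05% were higher and 8.61% lower. The log2 ratio of Lfng ranged from -0.82 to -0.23 over all alternatives, that of Jag1 from 0.05 to 0.36, that of Dll1 from 0.25 to 0.67, and that of Heyl from -0.63 to 0.12, the last with regions within 1 kb of a TSS. In stroma-like nuclei Heyl ranged from -0.25 to 0.12, with TSS regions, and Dll1 from -0.05, with peaks of 1 library added, to 0.48. In the other classes and over all nuclei the count stayed at 0 in every alternative run. The comparisons by cluster and the addition of peaks of 1 library were chosen after seeing the data. A peak of 1 library has no counts in the other by construction, so adding it cannot check a ratio.

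The count of other pathway genes in progenitor-like nuclei, 2, was 1 at Leiden resolution 0.5, 1 with own-marker naming, 0 with at least 1000 counts, 0 at 2-fold and 5 in cluster 1 of both libraries, where 108 Enl-T1 nuclei gave few counts. In stroma-like and ureteric epithelium-like nuclei it went from 0 to 1 with regions within 1 kb of a TSS and to 1 with peaks of 1 library added. In endothelial-like nuclei, 1 became 0 with a minimum of 5000 counts per barcode, matched regions, at least 1000 counts or 2-fold, 2 with all peaks as the total, TSS regions, own-marker naming, doublet-like nuclei removed or peaks of 1 library added, and 6 by shares. The causes were not tested. The class with the highest Enl-WT level was the same for all 9 genes at a minimum of 5000 counts. By shares of progenitor-like nuclei with a fragment, 5 of 9 genes were higher in Enl-T1 after thinning and 0 without it, at the lower Enl-T1 depth. No paired analysis was possible because each group was 1 library.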
